A study of Capra hircus with 4 samples.

Results

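The genes described here are the ligands, receptors, extracellular antagonists, intracellular components and feedback genes of WNT signalling in stem cells of the secondary hair follicle, which grows the fine undercoat of the cashmere goat. They were chosen by symbol from a list of 55 names, and 54 of the 20326 genes in the deposited tables matched. DKK4 was not analysed here. The cells came from dorsal skin and were cultured before RNA was taken, either at early anagen in April or at mid anagen in October. Each phase has 2 libraries, 1 from a female and 1 from a male, which the labels name biological replicates. The labels give no age, treatment, passage number or genotype. The comparison addresses how the cells differ in expression from the earlier to the later phase of fibre growth. Every early library is from April and every mid library from October. Phase, month and anything else that differed between the collections therefore cannot be told apart, and differences named by phase below carry this limit. Where 2 values are given for April or October, the female comes first and the male second. Since RNA came from whole cultures, fewer cells of a type and less RNA per cell cannot be told apart.

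WNT proteins are lipid-modified signals that bind Frizzled receptors together with the co-receptors LRP5 and LRP6. In the canonical branch this stops the destruction complex of APC, AXIN and GSK3B from degrading beta-catenin, which then works with TCF and LEF factors on target genes. In skin the pathway is known for starting follicle growth and for controlling when bulge stem cells leave rest. Secreted inhibitors of the DKK, SFRP and WIF families and feedback proteins such as RNF43 and ZNRF3 limit the signal.

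Values are deposited abundances per gene whose unit is not stated. They were treated as length-normalised, and levels of different genes are compared on that assumption. The read depth behind them is unknown, and no counting interval can be given. The libraries held 12040 to 12458 genes at or above 1, and 33 to 36 of the WNT genes. Library totals were 1068429 and 1186966 in April and 933211 and 844960 in October. Rescaling to a common total moved the median log2 difference of all 12486 tested genes from 0.01 to 0.32, a shift of 0.31. Directions are given as deposited, with exceptions after rescaling named.

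The labelled cell type was checked against marker genes. The 7 basal keratinocyte markers were all present, with a summed value of 39330 to 44030 in April and 19370 to 20370 in October. KRT5 and KRT14, the keratins of basal cells, made up most of that sum and were lower in both mid libraries, with log2 differences of -1.05 and -1.25. ITGB4, an integrin chain, was lower by less (-0.26, or 0.08 after rescaling), and ITGA6, TP63, COL17A1 and DST overlapped between phases. Of 9 bulge markers 8 were found by symbol, and each of the 8 was higher in both mid libraries than in both early ones, with sums of 95.4 to 122 and 216 to 243. Of all genes tested, 31.5% lay above in this way, or 57.2% after rescaling. CD34 was listed at 0 in both early libraries and reached 0.136 in October. LGR6 reached 0.856 in October, so CD34 and LGR6 were under 1 in all 4 libraries and are not among the genes tested. Fibroblast and dermal papilla markers also moved with phase. Of 16, 14 were higher in both mid libraries (31.5% of all genes tested were), with sums of 1.39 and 3.47 in April against 201 and 58.6 in October. Only genes at or above 1 in at least 2 libraries were tested. The fibroblast markers tested reached this in the October libraries alone, which fixed their direction, and the others were not tested. COL1A1, a type I collagen chain, stood at 0.179 and 0.987 in April and at 58.6 and 19.8 in October. DCN was at 0 in the April female, and PDGFRA, TWIST1, CORIN, ALPL and SOX2 were under 1 in all 4 libraries. The part of these markers in the differences below was not tested. The 6 immune markers summed to 8.47 and 6.72 in April and 18.2 and 11.9 in October. PTPRC, which marks all leukocytes, was listed at 0 in all 4 libraries, whereas CD14 was at 3.29 and 2.49 in April and 12.6 and 8.52 in October. CD68 overlapped between phases, at 2.397 to 4.41, and the other immune markers were under 1. All 5 endothelial markers were under 1 in all 4 libraries. Sebocyte markers, mostly SCD and FASN, summed to 937 and 784 in April and 575 and 714 in October. Differentiated keratinocyte markers summed to 390 and 253 in April and 312 and 151 in October. For smooth muscle and pericyte markers the sums were 77.8 and 66.7 in April and 74.8 and 107 in October. Schwann markers summed to 37.3 and 44.5 in April and 53.0 and 61.9 in October, and melanocyte markers to 5.8 to 7.23 over all libraries.

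Of the 54 WNT genes, 35 reached 1 in at least 2 libraries and were tested with limma on log2(value + 1), a scale that understates the change of low genes. FZD1, a Frizzled receptor, rose at mid anagen, and it was the 1 WNT gene called higher at a Benjamini-Hochberg adjusted p under 0.05 over all genes tested. Across all tested genes 0.224% were called higher and 0.0801% lower. None of the WNT genes was called lower in the limma fit, and at an unadjusted p under 0.05 there were 6 higher (17.1%, against 13.2% of all genes tested) and 2 lower (5.71%, against 14.7%). The 6 were FZD1, SFRP1, WNT7B, WNT4, APC and FZD7, and the 2 were WNT3A and WNT7A. The median log2 difference of the 35 was 0.09, beside 0.01 for all genes tested, and 0.40 beside 0.32 after rescaling.

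Both mid libraries lay above both early libraries for 14 of the 35 WNT genes (40%, against 31.5% of all genes tested) and below them for 8 (22.9%, against 30.9%). After rescaling these were 21 (60%, against 57.2%) and 2 (5.71%, against 12.7%). The counts are near the share over all genes in each scaling. WNT7A passed the low-value filter only through its early libraries, so its direction was fixed by the filter.

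**Figure D1:**
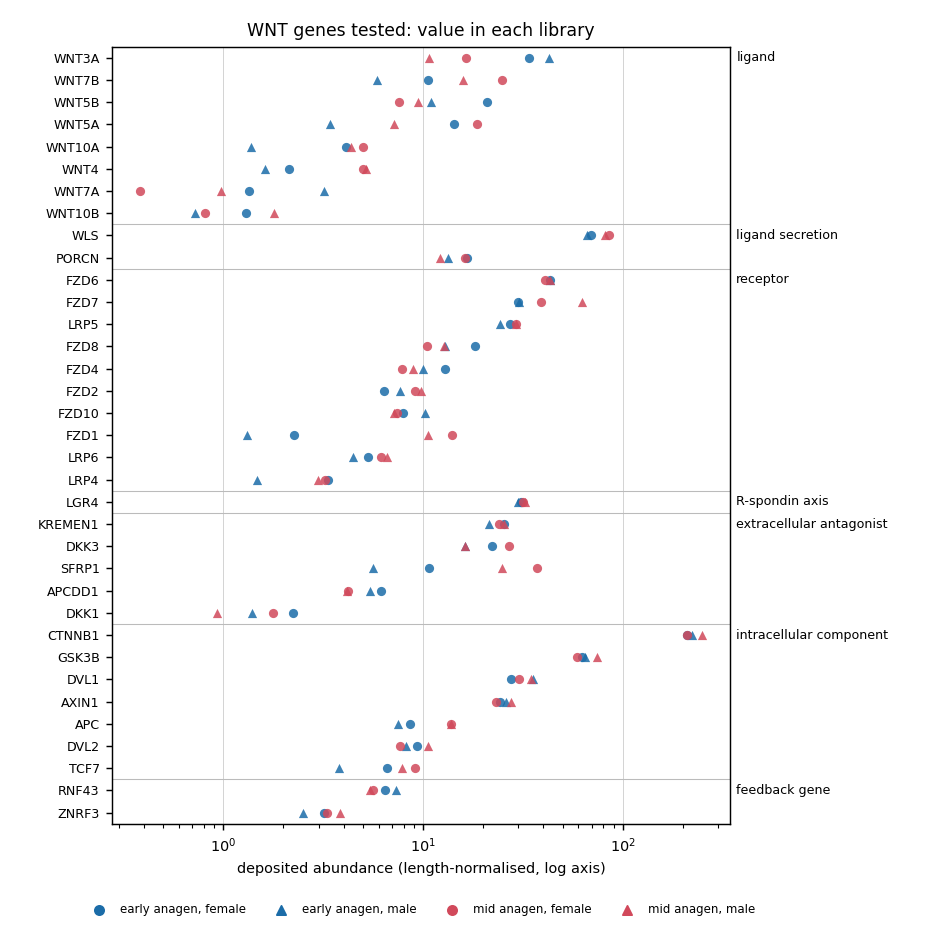
Deposited abundance (log axis) of the 35 tested WNT genes in each of the 4 libraries, grouped by role and ordered by mean value; colour gives the phase and symbol shape the sex. FZD1, SFRP1 and WNT7B have both mid libraries to the right of both early ones, WNT3A has both to the left, and CTNNB1 and FZD6 overlap.

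Among the 13 ligands, 8 were tested, 3 with both mid libraries above both early ones, 3 below and 2 overlapping. WNT3A (GeneID 102184049), a canonical ligand, was at 34.0 and 42.7 in April and 16.4 and 10.7 in October. The early libraries were both higher, and the male pair differed more than the female pair (-1.91 and -1.01 on the log2 scale). The fitted difference was -1.46 (SE 0.24, limma adjusted p = 0.0724, n = 2 per phase). WNT7B (GeneID 102176768), a ligand of skin epithelium, was at 10.6 and 5.89 in April and 24.96 and 15.9 in October. The phases did not overlap, the female library was the higher in each, and the difference was 1.23 (SE 0.33, adjusted p = 0.0974). WNT4 (GeneID 102187819) was low, at 2.15 and 1.63 in April and 5.03 and 5.21 in October. Its mid libraries were close to each other and above both early ones, with a difference of 1.09 (SE 0.19, adjusted p = 0.0724). WNT7A, the close relative of WNT7B, was at 1.35 and 3.21 in April and 0.385 and 0.977 in October (difference -0.93, SE 0.36, adjusted p = 0.17).

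The ligand with the highest value was WNT3A in both April libraries and WNT7B in both October libraries, an order within each library that does not depend on how the libraries are scaled. WNT3A made up 37.5% and 60.8% of the summed value of the 13 listed ligands in April and 20.5% and 18.6% in October. WNT7B made up 11.8% and 8.38% in April and 31.2% and 27.6% in October. The ratio of WNT3A to WNT7B was 3.19 and 7.26 in April and 0.656 and 0.672 in October. This pair was set side by side after its values were seen, so the ratios are a description without a test. The summed ligand value itself overlapped between phases, at 90.5 and 70.3 in April and 80.0 and 57.5 in October, and was higher in the female of each phase.

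WNT5A, the best known ligand of the branch that works without beta-catenin, separated by sex more than by phase. It was at 14.3 in the April female and 18.5 in the October female against 3.43 in the April male and 7.15 in the October male. Its phase difference was 0.62 (SE 0.68, adjusted p = 0.585), and ran from -0.28 to 1.51 when each library was left out. WNT5B, its close relative, was at 20.8 and 10.9 in April and 7.54 and 9.48 in October, so most of its difference of -0.77 (SE 0.31, adjusted p = 0.181) came from the female pair. After rescaling the difference of WNT5B was -0.46, its male pair changed direction and its phases overlapped. WNT10A was at 4.10 and 1.37 in April and 5.03 and 4.35 in October, and WNT10B at 1.30 and 0.726 in April and 0.811 and 1.79 in October. WNT10B was lower in the October female than in the April female and higher in the October male than in the April male.

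The other 5 ligands were below the filter. WNT6 reached 1.27 in the April female and WNT11 reached 1.497 in the October male, and both stayed under 1 in the remaining libraries. WNT2, WNT3 and WNT16 stayed under 1 in all 4 libraries, with a highest value of 0.24 for WNT3, and WNT2 was listed at 0 in both early ones.

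Ligands need PORCN, which attaches the lipid, and WLS, which carries them to the cell surface. WLS was at 68.9 and 66.2 in April and 85.5 and 81.1 in October, higher in both mid libraries, with a difference of 0.30 (SE 0.14, adjusted p = 0.24), or 0.64 after rescaling. PORCN was at 16.5 and 13.4 in April and 16.2 and 12.1 in October, and its phases overlapped. Its difference of -0.08 (SE 0.20, adjusted p = 0.821) turned to 0.24 after rescaling.

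**Figure D2:**
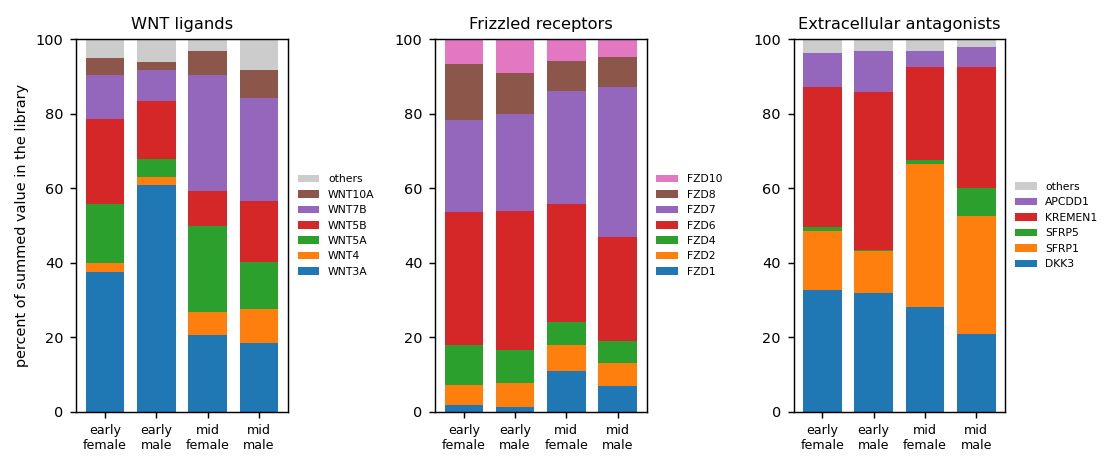
Share of each gene in the summed value of the listed ligands (left), Frizzled receptors (middle) and extracellular antagonists (right) in each library, in percent. Genes of the further pathway list are not in the sums. Genes under 5% in all 4 libraries are joined as others. WNT3A shrinks from 37.5% and 60.8% to 20.5% and 18.6%, FZD1 grows from 1.88% and 1.14% to 10.9% and 6.87%, and SFRP1 grows from 15.8% and 11.1% to 38.5% and 31.8%.

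All 10 receptor genes were tested. FZD1 (GeneID 102183205) was at 2.27 and 1.32 in April and 14.0 and 10.6 in October. Both mid libraries were well above both early ones, and the 2 pairs differed by nearly the same amount, 2.20 in the female and 2.33 in the male pair. The fitted log2 difference was 2.26 (SE 0.24, limma adjusted p = 0.0468), and the ratio of the mean values was 6.86. Relative to FZD6 in the same library, FZD1 was at 0.0523 and 0.0306 in April and 0.344 and 0.246 in October. The fibroblast marker sum was higher in the same 2 libraries, and its part in the FZD1 difference was not tested. The adjusted p ranged from 0.00364 to 0.211 over the alternatives, and the call ended without the April female (0.072), without the April male (0.211), with a pseudocount of 0.1 (0.0616), without a low-value filter (0.106) and without the intensity trend (0.056).

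FZD7 was the receptor with the next smallest p. It was at 29.9 and 30.1 in April and at 39.0 in the October female and 62.3 in the October male, so the early libraries were alike and the mid ones were not. The difference was 0.70 (SE 0.24, adjusted p = 0.144), and FZD7 passed without the October female (difference 1.03, adjusted p = 0.0339). FZD2 was at 6.41 and 7.67 in April and 9.11 and 9.82 in October, with a difference of 0.38 (SE 0.16, adjusted p = 0.194). FZD4, which also serves the ligand norrin, was at 12.9 and 10.01 in April and 7.85 and 8.91 in October, lower in both mid libraries, with a difference of -0.40 (SE 0.18, adjusted p = 0.214), or -0.09 after rescaling.

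FZD6 had the highest mean value of the 10 listed receptors, at 43.4 and 43.2 in April and 40.7 and 43.3 in October. Its phases overlapped and its difference was -0.04 (SE 0.14, adjusted p = 0.86), or 0.29 after rescaling, just under the median of all genes. FZD8 and FZD10 had both mid libraries below both early ones, with differences of -0.37 and -0.27 that did not pass. After rescaling that of FZD8 was -0.05 and that of FZD10 turned to 0.03. In early libraries FZD6 held the largest share of the summed value of the listed Frizzled genes, 35.9% and 37.4%. FZD3, FZD5 and FZD9 were on the further list and are not in this sum. In the October male FZD7 held the largest share, 40.2%, and in the October female FZD6 and FZD7 were close at 31.7% and 30.3%.

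The co-receptors LRP5 and LRP6 were higher in both October libraries by small amounts. LRP5 was at 27.1 and 24.4 in April and 29.2 and 29.3 in October (difference 0.18, SE 0.14, adjusted p = 0.444), and LRP6 at 5.32 and 4.44 in April and 6.15 and 6.56 in October (0.33, SE 0.17, adjusted p = 0.26). LRP4, a related receptor that binds WNT antagonists, was at 3.36 and 1.48 in April and 3.23 and 2.99 in October, with overlapping phases.

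R-spondins raise WNT signalling by binding LGR receptors and so keeping RNF43 and ZNRF3 away from Frizzled proteins. All 4 R-spondin genes stayed under 1 in all 4 libraries. RSPO3 had the highest single value, 0.388 in the October female, and was listed at 0 in both early libraries. The receptor LGR4 was at 30.8 and 30.0 in April and 31.6 and 32.3 in October. Its difference was 0.07 (SE 0.14, adjusted p = 0.771), or 0.40 after rescaling, 0.08 above the median of all genes.

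Of the 11 extracellular antagonists in the tables, 5 were tested and none was called. SFRP1 (GeneID 102176017), which binds WNT proteins outside the cell, was at 10.8 and 5.63 in April and 37.0 and 24.9 in October. The mid libraries were both above the early ones, with the female the higher in each phase. The log2 difference was 1.83 (SE 0.33, limma adjusted p = 0.0724) and the ratio of mean values was 3.78. SFRP1 and WNT3A did pass when the October female or the October male was left out, with adjusted p of 0.0463 and 0.0353 for SFRP1 and 0.0146 and 0.0476 for WNT3A. Over all alternatives the adjusted p ran from 0.00504 to 0.346 for SFRP1 and from 0.0146 to 0.354 for WNT3A.

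The remaining tested antagonists had smaller fitted differences. KREMEN1, a receptor for DKK proteins, had the highest mean value, at 25.5 and 21.5 in April and 24.0 and 25.4 in October, and its phases overlapped (difference 0.07, SE 0.15, adjusted p = 0.789). DKK3, a divergent member of the DKK family, was at 22.3 and 16.2 in April and 27.0 and 16.3 in October, a split by sex in each phase (phase difference 0.14, SE 0.28, adjusted p = 0.781). APCDD1, a membrane-bound inhibitor, was at 6.14 and 5.45 in April and 4.19 and 4.16 in October, lower in both mid libraries (difference -0.39, SE 0.16, adjusted p = 0.188), or -0.11 after rescaling. DKK1, which blocks LRP5 and LRP6, was low, at 2.23 and 1.39 in April and 1.78 and 0.928 in October (difference -0.26, SE 0.28, adjusted p = 0.577), or -0.07 after rescaling.

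Several classical antagonists had low values. DKK2, SFRP2, SFRP4, WIF1 and NOTUM stayed under 1 in all 4 libraries. WIF1 had the highest value among them, 0.657 in the October female, and SFRP2 was listed at 0 in 3 of 4 libraries. SFRP5 was at 0.773, 0.228 and 0.828 in the April female, April male and October female, but at 5.92 in the October male. It reached 1 in that library only and was therefore below the filter.

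The summed antagonist value was 68.0 and 50.6 in April and 96.0 and 78.3 in October. Divided by the summed ligand value of the same library, it was 0.751 and 0.72 in April and 1.20 and 1.36 in October. Without SFRP1 the ratio was 0.632 and 0.64 in April and 0.738 and 0.929 in October, so the phases still did not overlap but lay closer. These ratios are free of the library scale, were formed after the values were seen and are given without a test. The sums cover only the 11 antagonists and 13 ligands of the list. Genes of the further list described below are not in them, among them the ligands WNT2B, WNT9A and WNT9B and the antagonists DKKL1 and SOSTDC1. SOSTDC1 was at 13.0 and 0.571 in April and 35.2 and 8.27 in October.

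**Figure D3:**
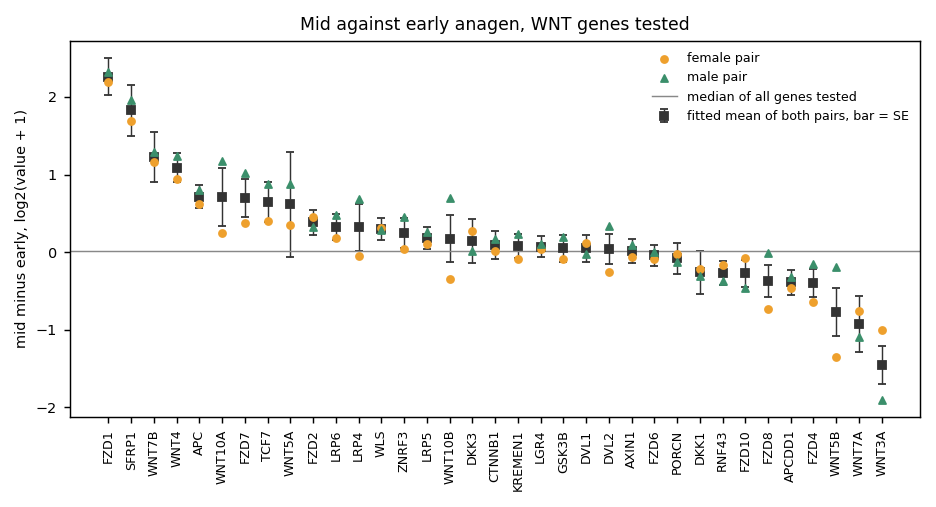
Difference of log2(value + 1) between mid and early anagen for the 35 tested WNT genes, ordered by size: squares with bars are the fitted difference and its SE, circles the female pair and triangles the male pair, and the line is the median of all genes tested. FZD1 at 2.26 and SFRP1 at 1.83 are the highest and WNT3A at -1.46 is the lowest, and the pairs of WNT10B and WNT5B lie far apart.

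The 7 intracellular components were all tested, and 5 of them overlapped between phases. APC (GeneID 102184724), the scaffold of the destruction complex, was at 8.62 and 7.46 in April and at 13.8 in both the October female and the October male. The mid values were nearly equal and above both early ones, with a difference of 0.71 (SE 0.15, limma adjusted p = 0.0783). TCF7, a DNA-binding partner of beta-catenin, was at 6.64 and 3.78 in April and 9.11 and 7.82 in October (difference 0.64, SE 0.26, adjusted p = 0.182). CTNNB1, which encodes beta-catenin, had the highest value of all the WNT genes, at 209 and 221 in April and 210 and 249 in October. Its difference was 0.09 (SE 0.18, adjusted p = 0.773). The kinase GSK3B was at 62.6 and 64.9 in April and 58.8 and 74.2 in October (0.05, SE 0.17, adjusted p = 0.871). AXIN1, DVL1 and DVL2 had differences of 0.01 to 0.05.

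Of 6 feedback genes, 2 were tested. RNF43 and ZNRF3 are ubiquitin ligases that remove Frizzled receptors from the cell surface. RNF43 was at 6.49 and 7.33 in April and 5.64 and 5.45 in October (difference -0.27, SE 0.16, adjusted p = 0.31), which became 0.02 after rescaling. ZNRF3 was at 3.20 and 2.51 in April and 3.31 and 3.82 in October (difference 0.25, SE 0.19, adjusted p = 0.432).

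The feedback genes AXIN2, NKD1, NKD2 and SP5, of which AXIN2 and SP5 are widely read as reporters of canonical signalling, stayed under 1 in all 4 libraries. AXIN2 was at 0.173 and 0.0968 in April and 0.318 and 0.132 in October. NKD2 had the highest value of the 4, 0.55 in the October female, and SP5 was listed at 0 in both female libraries. In all, 16 of the 54 WNT genes (29.6%) were under 1 in all 4 libraries, beside 36.5% of all genes in the tables.

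Between sexes, none of the 35 WNT genes was called by limma with phase and sex as terms, against 0.144% of all genes tested, and 8 had an unadjusted p under 0.05 (22.9%, against 11% of all genes tested). WNT5A came nearest, with a male minus female difference of -1.52 (SE 0.18, adjusted p = 0.0503), and was higher in the female of both phases. Both female libraries lay above both male ones for 5 WNT genes (14.3%, against 11.9% of all genes tested), namely WNT5A, PORCN, LRP4, DKK1 and DKK3. Both male libraries lay above both female ones for 4 (11.4%, against 12.3%), namely CTNNB1, GSK3B, AXIN1 and DVL1. After rescaling to a common total none of these 4 was separated by sex, and neither was LRP4. As deposited, the shares of genes separated by sex are near those over all genes, whereas the share at an unadjusted p under 0.05 is above it. The 8 genes behind that share were WNT5A, WNT7A, WNT7B, WNT10A, FZD1, DKK1, DKK3 and SFRP1. This fit leaves 1 residual degree of freedom, and sex cannot be told apart from anything else that differed between the female and male libraries. The phase difference had opposite signs in the female and male pair for 8 of the 35 genes, and with 1 library per sex and phase this was not tested.

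A further list of 63 WNT pathway genes, taken by role, had 58 in the tables and 43 tested. It was drawn up with earlier results of these data known, so its shares describe the list and do not test it. None was called by limma over all genes, and at an unadjusted p under 0.05 there were 20 higher (46.5%, against 13.2% of all genes tested) and 1 lower (2.33%, against 14.7%). Both mid libraries were above both early ones for 29 of the 43 (67.4%, against 31.5% of all genes) and below for 1. After rescaling the first count was 34 (79.1%, against 57.2%). Their median log2 difference was 0.41 beside 0.01 for all genes tested. ROR2, GPC4 and TLE2 reached the filter in the October libraries alone and WNT9B in the April libraries alone, which fixed their direction. Without these 4 genes, 26 of 39 (66.7%) had both mid libraries above both early ones and 0 below, and the median difference was 0.36.

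TCF7L1, a TCF factor that mostly represses WNT targets and marks bulge stem cells, was at 2.39 and 1.17 in April and 11.5 and 15.3 in October. Its difference of 2.40 (SE 0.27, limma adjusted p = 0.0551) just missed the threshold, with a range of 0.0098 to 0.211 over the alternatives. TCF7L2 was at 21.0 and 15.3 in April and 35.2 and 37.8 in October (0.98, SE 0.19, adjusted p = 0.0746). TNIK, a kinase that acts on TCF complexes, was at 6.02 and 3.00 in April and 14.9 and 25.5 in October (1.96, SE 0.36, adjusted p = 0.0726). LGR5, an R-spondin receptor and stem cell marker, was at 1.00 and 0.352 in April and 4.48 and 2.90 in October (1.49, SE 0.29, adjusted p = 0.0766). The WNT5A receptor ROR2 was at 0.267 and 0.375 in April and 2.60 and 3.37 in October, and the heparan sulfate proteoglycan GPC4 at 0.207 and 0.0474 in April and 3.05 and 2.28 in October, both with an adjusted p of 0.0625. TCF7L1 and LGR5 are also among the bulge markers above.

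Of the nuclear factors, 9 were tested, 1 of them TLE2. The other 8 each had both mid libraries above both early ones, with a median difference of 0.57, where 31.5% of all genes tested did. Of 9 tested planar cell polarity genes 7 did (77.8%), with a median of 0.59, among them CELSR2 at 14.2 and 7.19 in April and 22.1 and 20.9 in October and DAAM2 at 1.18 and 1.08 in April and 2.89 and 3.59 in October. None of these passed over all genes, and CELSR2 and DAAM2 were picked after their values were seen.

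**Figure D4:**
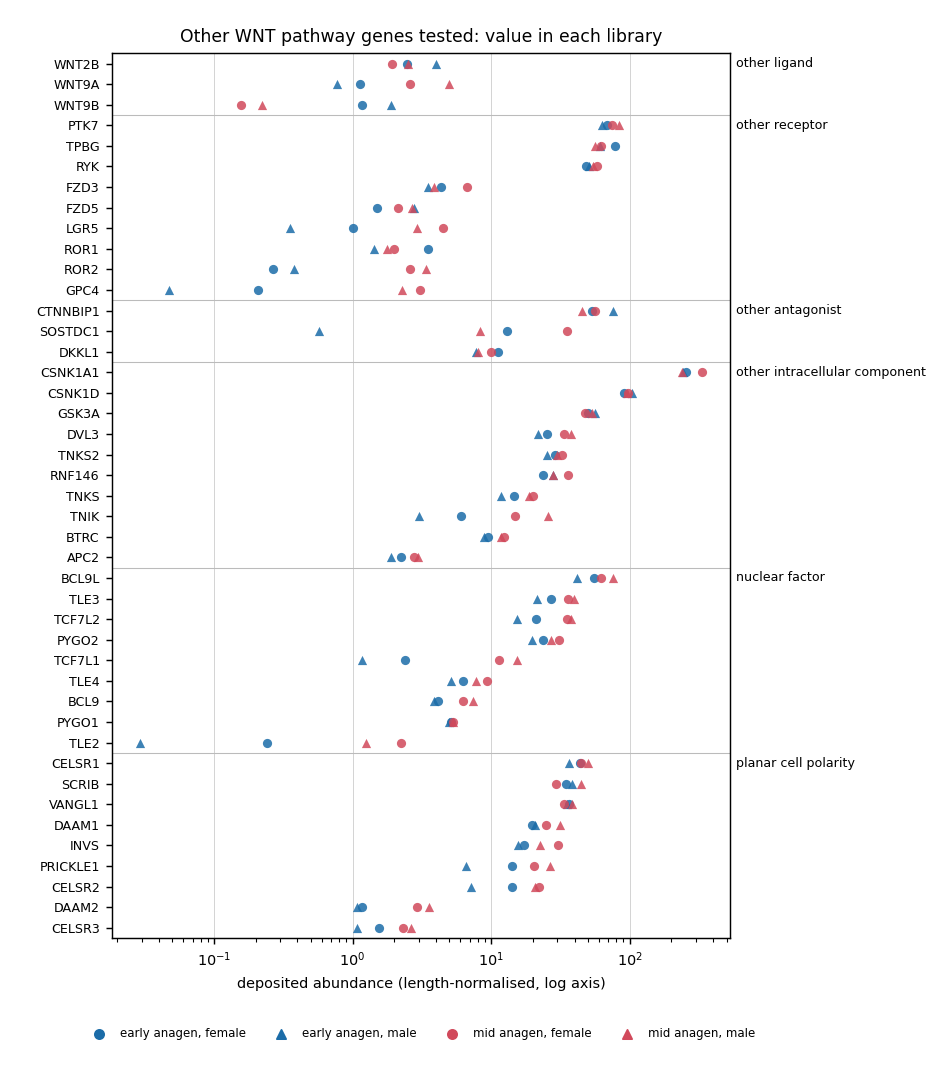
Deposited abundance (log axis) of the 43 tested genes of the further WNT list in each library, grouped by role; colour gives the phase and symbol shape the sex. Both mid libraries lie to the right of both early ones for 29 genes, among them TCF7L1, TNIK, LGR5, ROR2 and GPC4.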

How the data were processed

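RNA was sequenced from 4 libraries, 1 per sex in each of 2 phases. The labels' protocols name a TRIzol-type extraction and an NEB Ultra RNA library kit, and the submitters' processing notes name kallisto 0.46.1 and sleuth 0.30.0. The deposited values are a signal that the authors give as 1 abundance per gene and library. They are not whole numbers, and their totals differ between libraries. Their unit is not stated. They were treated as length-normalised values rescaled between libraries, which was not tested. No source used here states the genome build, the annotation or how transcript values became gene values. How reads shared by close relatives such as WNT7A and WNT7B were divided was not tested.

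Genes were matched by symbol, and 54 of 54 identifiers were in the RefSeq gene table of assembly ARS1.2, which served only for which genes neighbour each other. Genes at or above 1 in at least 2 libraries were fitted on log2(value + 1) with limma 3.58.1 in R 4.3.3, with an intensity trend, phase as the only term and Benjamini-Hochberg adjustment over all 12486 genes at 0.05. Sexes were compared in a fit with phase and sex. With 2 libraries per phase, and nothing on shared animals in the labels, p-values measure only the spread between these libraries. The fit was tested on simulated data. These had independent noise and no difference by sex or in library total, so they say nothing on how either affects the calls.

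The WNT genes, the further pathway list and the marker lists were chosen with earlier results of these data known. Full statistics are given for called genes and for the 4 tested genes of each role with the smallest p. The gene of each role with the highest mean is given with values, as are genes below the filter that reach 1 in a library. From the further list the 6 with the smallest p are given. Alternatives were pseudocounts of 0.1 and 5, no filter, a filter of 5, rescaling to a common total, a replicate block, no trend and leaving out each library.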

Additional observations from a re-analysis of the deposited data

How the results depend on the processing

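The number of WNT genes called higher was 1 as deposited and 0 with a pseudocount of 0.1, with no filter and with no intensity trend. It was 4 after rescaling and 5 with the replicate block, and ran from 0 to 3 when each library was left out. The number called lower was 0 as deposited, 1 after rescaling, 2 with the replicate block, and 0 to 1 when each library was left out. FZD1, SFRP1, WNT4 and APC were the 4 higher genes after rescaling and WNT3A the lower one, and the block added WNT7B and WNT7A. Calls among the further pathway genes were 0 as deposited, 1 with a pseudocount of 5 or a filter of 5 (TCF7L1 in each), 9 after rescaling, 13 with the block and 0 to 5 when each library was left out. The median difference of the tested WNT genes moved from 0.09 to 0.40 after rescaling. WNT5A was the 1 WNT gene called between sexes with a pseudocount of 0.1, of 5 or after rescaling. Calls over all genes were not counted in these sex fits, and were 0.144% of genes tested in the sex fit as deposited.

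The replicate number equals the sex, and nothing in the labels pairs the animals. Deviations of same-numbered libraries from their phase means correlated at 0.29 across genes. The block raised calls over all genes from 38 (0.304%) to 1782 (14.3%), and rescaling to 651 (5.21%), of which 87.3% were higher against 73.7% as deposited and 51.5% with the block. Without the early female or the early male 0 genes were called (2897 and 1445 at an unadjusted p under 0.05), and without the mid female or mid male 733 and 370. The library left alone in its phase is assumed to vary like the other phase.

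Differences of uncalled genes changed sign. After rescaling PORCN was at 0.24, RNF43 at 0.025, FZD10 at 0.032 and FZD6 at 0.29. When each library was left out, PORCN ran from -0.28 to 0.11, DKK1 from -0.53 to 0.0022, DKK3 from -0.21 to 0.49, CTNNB1 from -0.030 to 0.21, GSK3B from -0.11 to 0.22, KREMEN1 from -0.047 to 0.19, AXIN1 from -0.11 to 0.13, DVL1 from -0.12 to 0.22, DVL2 from -0.17 to 0.25, WNT10B from -0.14 to 0.48, LRP4 from -0.085 to 0.73 and WNT5A from -0.28 to 1.51. None of these was called in any of these phase fits. The depth is unknown, so no detection limit can be set for values under 1.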

Other observations

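Of the WNT ligand genes, 4 pairs neighbour each other in the ARS1.2 assembly with no protein-coding gene between them. In the pair of WNT3A and WNT9A the values went apart. WNT9A was at 1.13 and 0.778 in April and 2.61 and 4.93 in October, whereas WNT3A was lower in October, and the ratio of WNT3A to WNT9A was 30.03 and 54.9 in April and 6.28 and 2.16 in October. In the pair of WNT3 and WNT9B, WNT9B was at 1.18 and 1.89 in April and 0.156 and 0.221 in October, and WNT3 was at most 0.24. These genes were picked for their position and described after their values were seen.

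Among the 4 TCF and LEF genes, TCF7L2 held most of the summed value in each library, 69.9% and 75.4% in April and 62.7% and 61.9% in October. TCF7L1 held 7.94% and 5.75% in April and 20.4% and 25.1% in October. LEF1, the factor tied to hair shaft precursors, held at most 0.635% of the sum in any library.

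SOSTDC1, a secreted inhibitor of WNT and BMP signals, had the widest split by sex among the tested genes of the further list, at 13.0 and 35.2 in the April and October female and 0.571 and 8.27 in the April and October male. Its male minus female difference was -2.56 (SE 0.28, limma adjusted p = 0.0503), and it was higher in October in both sexes. Its phase difference of 1.97 did not pass with phase as the only term (SE 1.13, limma adjusted p = 0.308) and passed with sex as a replicate block (adjusted p = 0.0153). It ran from 0.39 without the April male to 3.54 without the April female, and neither passed. The gene was picked with its values known.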
